A study of Homo sapiens with 2 samples.

Results

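LRPPRC, PTCD3, PNPT1, MRPL47 and NDUFB5 are nuclear genes whose proteins work inside mitochondria, and 141 of the 370863 LSD2 peaks in HepG2 cells (0.0380%) had their midpoint within these 5 genes. HepG2 is an established human liver tumour line. The cells were kept in medium with 25 mM glucose and 10% serum and received no treatment, and the study held 1 library from LSD2 chromatin immunoprecipitation (ChIP) and 1 library of input chromatin. The ChIP antibody was polyclonal, from rabbits immunised with recombinant LSD2 (residues 26 to 822). The deposited list gives the position of each region where ChIP exceeded input on the hg19 build, with no height or p-value. The 5 genes were chosen by the density, spacing and width of peaks in this same list, so the densities, widths and runs below are descriptions without a test, and no difference can be set against replicate error. No readout other than peak positions was at hand by which the cell identity could be checked.

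LSD2, the product of KDM1B, is a flavin-dependent demethylase of lysine 4 on histone H3 and is known to associate with the transcribed bodies of active genes. Mitochondria carry a small genome of their own, but the proteins that process, stabilise, translate and degrade its transcripts are encoded in the nucleus. LRPPRC is a pentatricopeptide repeat protein that binds mitochondrial messenger RNAs with its partner SLIRP and keeps them stable, and its mutation causes a form of Leigh syndrome. PTCD3 is a pentatricopeptide repeat protein of the small mitochondrial ribosomal subunit, and MRPL47 is a protein of the large subunit. PNPT1 encodes polynucleotide phosphorylase, an exoribonuclease that degrades mitochondrial RNA from the 3′ end. NDUFB5 is an accessory subunit of respiratory complex I.

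LRPPRC lies at chr2:44113363-44223144 (109.8 kb, minus strand), PNPT1 at chr2:55861198-55921045 (59.8 kb, minus strand) and PTCD3 at chr2:86333305-86369280 (36.0 kb, plus strand). MRPL47 at chr3:179306255-179322434 (16.2 kb, minus strand) and NDUFB5 at chr3:179322573-179342228 (19.7 kb) lie head to head with 138 bp between them. The start of NDUFB5 was taken as the end that faces MRPL47. Exons and introns were not analysed here, since no annotation of hg19 was used.

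No LSD2 peak lay over the start of any of the 5 genes, so the start regions are shown first. RefSeq promoter sequences (GRCh38.p14, 250 bases before to 50 after the start) were matched for 4 of the 5 genes: LRPPRC, PTCD3, PNPT1 and MRPL47. They are on a newer build than the peaks and were not placed on them. The LRPPRC stretch is the sequence before the start of the gene with the most peaks. The second stretch lies between the RefSeq start of MRPL47 and the facing edge of NDUFB5 in RefSeq, which was taken as its start. The third is the site in PTCD3 that matched a motif. Each is written 5′ to 3′ on the strand of the named gene, and capitals mark matches to the motifs searched. The RefSeq start of MRPL47 and this edge of NDUFB5 are 147 bases apart, and the hg19 intervals used for the peaks 138 bases. The gene limits of the 2 sources are thus not the same.
LRPPRC, 250 bases before the start, chr2:43995990-43996239, minus strand: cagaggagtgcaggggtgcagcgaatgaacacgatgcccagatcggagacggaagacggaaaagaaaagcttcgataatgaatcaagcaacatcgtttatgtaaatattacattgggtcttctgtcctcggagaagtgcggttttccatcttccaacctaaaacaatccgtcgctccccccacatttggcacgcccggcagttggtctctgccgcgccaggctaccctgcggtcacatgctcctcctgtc
MRPL47 to NDUFB5, 147 bases, chr3:179604647-179604793, minus strand: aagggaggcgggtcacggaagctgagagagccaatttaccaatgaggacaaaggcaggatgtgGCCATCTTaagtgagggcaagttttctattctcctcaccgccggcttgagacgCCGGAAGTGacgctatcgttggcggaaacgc
PTCD3, 28 bases from the start, chr2:86106235-86106262, plus strand: agagaaatcaAAGATGGCggttgtatct

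In the stretch between MRPL47 and NDUFB5, the first capitals are AAGATGGC read on the opposite strand, the core of the motif of YY1, and the second are CCGGAAGTG, a motif of the ETS family that includes GABP. Both factors are known regulators of nuclear genes for mitochondrial proteins. On both strands, CCGGAAGTG was found in 2.36% of the 35116 RefSeq promoters of 300 bases and the shorter CCGGAAG, which lies within it, in 10.3%. AAGATGGC was found in 2.89% and occurred once each in the MRPL47 and PTCD3 windows. The motif of NRF1, another such regulator, was found in 5.78% of all promoters and TATAAA in 11.5%, and neither was in the windows of the 4 matched genes. LRPPRC and PNPT1 held none of the motifs. A match here is a run of letters, not a shown binding site.

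The 4 matched promoters held more CpG for their base composition than the median promoter, most clearly LRPPRC and PNPT1. The ratio of observed to expected CpG was 0.96 for LRPPRC, 1.05 for PNPT1 and 0.77 for PTCD3, and 0.86 or 0.88 for the 2 listed starts of MRPL47. The median over all promoters was 0.58, and 12.5% of promoters were at or above LRPPRC, 4.93% at or above PNPT1 and 35.6% at or above PTCD3. For the 2 starts of MRPL47 the shares were 24.3% and 21.8%. GC content was 55.3% for LRPPRC, 53.0% for PNPT1 and 48.0% for PTCD3, all under the median of 58.7%.

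All 5 genes held more LSD2 peaks per Mb than the 130 per Mb of all searched sequence, which runs from the first to the last peak of each chromosome without peak-free stretches over 500 kb. LRPPRC, the mitochondrial messenger RNA stability factor, held 78 peaks, or 710.5 per Mb (95% exact Poisson interval 562 to 887). MRPL47 held 11 peaks in its short length, or 679.9 per Mb (339 to 1216). PTCD3 held 21 peaks, or 584 per Mb (361 to 892). These 3 genes stood at 5.48, 5.25 and 4.50 times the density of all searched sequence. PNPT1 held 24 peaks, or 401 per Mb (257 to 597), and NDUFB5 held 7, or 356 per Mb (143 to 734), which were 3.09 and 2.75 times that density. The intervals of the 5 genes overlapped one another, and the order of the genes was not tested. They cover counting error only and treat peaks as independent, which neighbours are not.

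**Figure D1:**
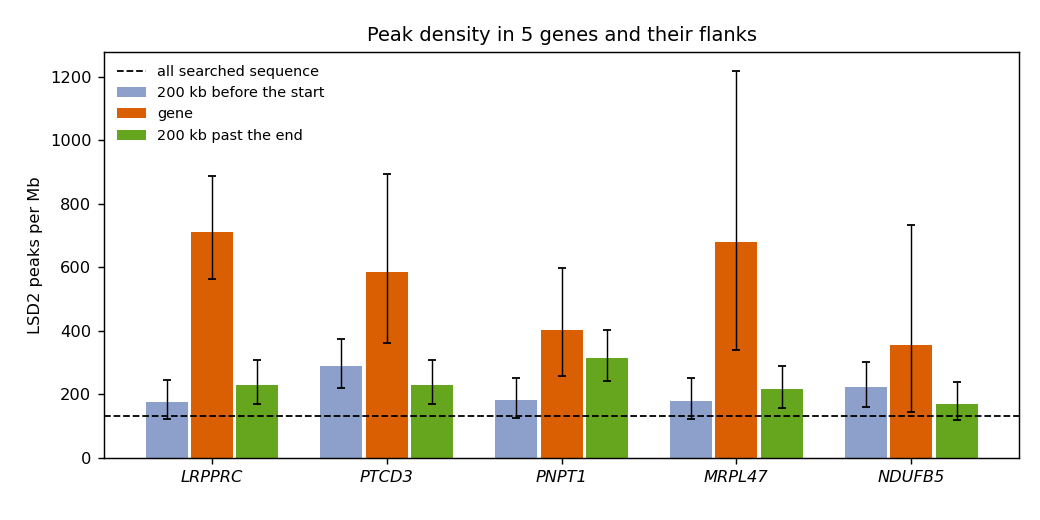
LSD2 peaks per Mb (vertical axis) in each gene and in the 200 kb before its start and past its end, with 95% exact Poisson intervals as error bars and the density of all searched sequence as a dashed line. For MRPL47 and NDUFB5 the flank leaves out the other gene. Gene bars stand at 356 to 710.5 per Mb and flank bars at 170.0 to 315 per Mb.

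Each gene had more peaks per Mb than both of its flanks together. LRPPRC stood 3.51 times above its flanks (95% exact interval 2.54 to 4.85), with 175 peaks per Mb before the start and 230.0 past the end. MRPL47 stood 3.45 times above its flanks (1.65 to 6.53) and PTCD3 2.25 times (1.33 to 3.61). For PNPT1 the ratio was 1.62 (0.99 to 2.55) and for NDUFB5 it was 1.82 (0.71 to 3.94), and the latter became 3.25 when every deposited line was counted. The genes were chosen on these densities, so the intervals describe counting error and decide nothing about any gene. The differences between genes in this ratio were not tested. PNPT1 was 2.23 times denser than the sequence before its start but 1.27 times denser than that past its end, where 63 peaks lay in 200 kb. The flanks were themselves above the density of all searched sequence, by 1.51 times for NDUFB5 to 2.01 times for PTCD3. Chromosome 2, which carries LRPPRC, PTCD3 and PNPT1, had 177 peaks per Mb and chromosome 3 had 141, and LRPPRC was 4.02 times as dense as its chromosome. HepG2 is aneuploid, and neither DNA copy number nor read depth at these genes was measured here, so local copy number and LSD2 occupancy cannot be told apart in these densities.

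As background to these densities, the searched sequence was tiled in windows of the length of each gene. No tile (0.00% of 26042) reached the 78 peaks of LRPPRC, and the highest, at chr2:216196589-216306370, held 77. The tiles were fixed and did not overlap, so a window placed otherwise could hold as many peaks as LRPPRC or more. By bases covered with peaks, 1 tile (0.00384%) was at or above LRPPRC. Windows at or above the count of the gene made up 0.138% for PTCD3, 0.810% for PNPT1, 0.194% for MRPL47 and 4.74% for NDUFB5. The genes were chosen for their density, so these shares are a description. For 3 of the window lengths the fullest tile of the genome lay within LRPPRC itself. These were 37 peaks in a tile of PTCD3 length (chr2:44157218-44193193), 19 in a tile of MRPL47 length (chr2:44186066-44202245) and 21 in a tile of NDUFB5 length (chr2:44181698-44201353).

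Peaks were not spread evenly but came in long trains in 3 of the genes. Runs were defined as at least 15 consecutive peaks with no gap above 2 kb between neighbours. Of the 141 peaks, 79 (56.0%) lay in such runs, against 0.242% of all peaks. LRPPRC had 48 peaks of its 78 in a run, PTCD3 had 20 of 21, and MRPL47 had 11 of 11, while PNPT1 and NDUFB5 had 0. The longest train that met PNPT1 had 7 peaks, 6 of them in the gene. For NDUFB5 it had 5, with 4 in the gene, and both were short of the 15 required. Runs were part of why these genes were picked, and nothing is read from the share.

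**Figure D2:**
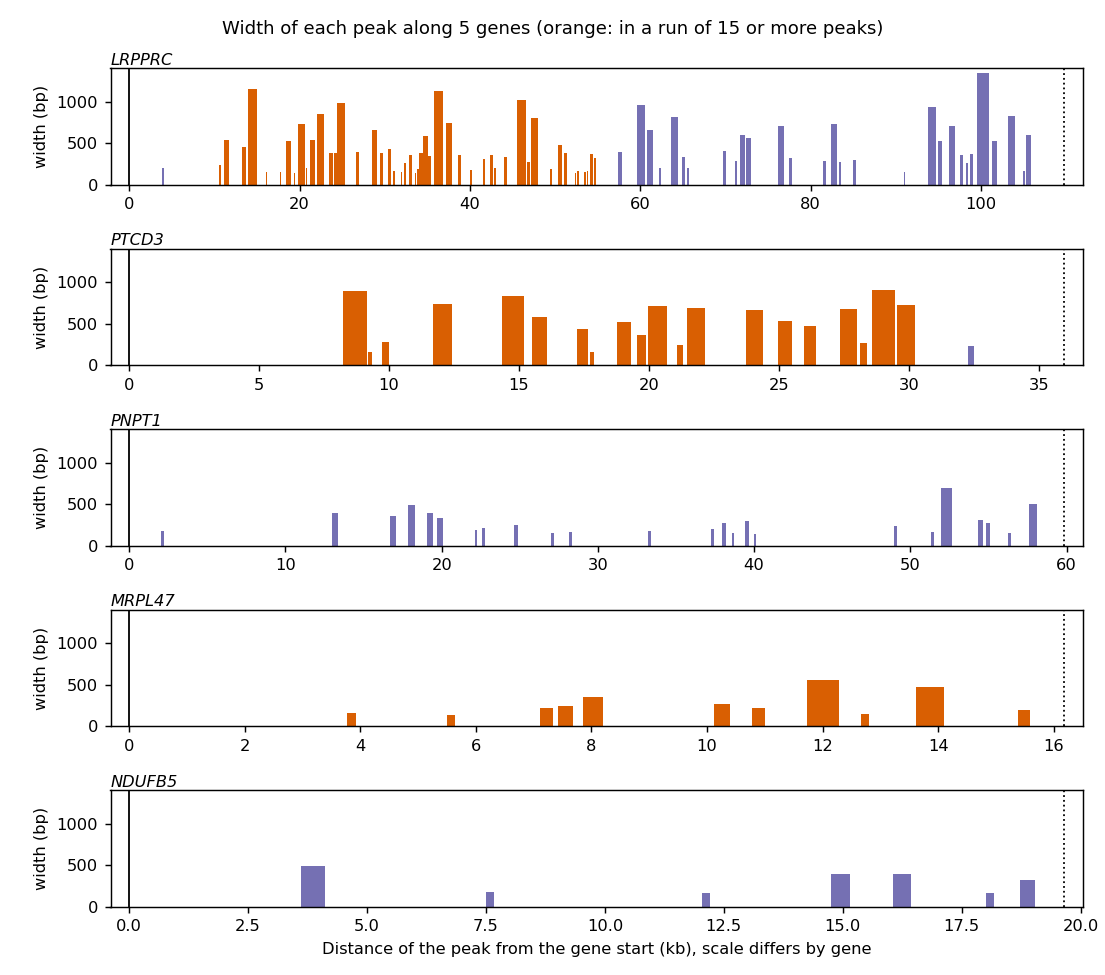
Each bar is 1 LSD2 peak, placed by its distance from the gene start in kb (horizontal axis, scaled to each gene, bar width to scale) with its width in bp as height. Orange bars lie in a run of 15 or more peaks, solid lines mark the start and dotted lines the end of the gene. No gene has a peak in its first 2063 bp, and all peaks of MRPL47 and 20 of 21 in PTCD3 are orange.

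In LRPPRC the run reached from 10.7 to 54.7 kb behind the start and took up 40.3% of the gene. Its 48 peaks had a density of 1084 per Mb, a median width of 354 bp and covered 44.8% of 44.3 kb. The 10.5 kb between the start and the run held a single peak, of 200 bp at chr2:44219100-44219299. The 54.9 kb from the run to the gene end held 29 peaks, or 528 per Mb. With the run left out, the gene remained at 3.54 times the density of all searched sequence and at 2.26 times that of its flanks. The dense part of LRPPRC was therefore larger than the run alone.

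Peaks in LRPPRC were sparser but not narrower away from the run. The 30 peaks outside it had a median width of 398.5 bp, and 14 of them reached 500 bp, compared with 13 of the 48 inside. Only 2 of these 30 were under 170 bp, against 10 of the 48. The 3 widest peaks of the gene were 1344 bp at chr2:44122245-44123588, near the gene end and outside the run, 1145 bp at chr2:44208092-44209236 and 1121 bp at chr2:44186282-44187402, both in it. In 3 equal parts of the gene from the start, LRPPRC held 30, 30 and 18 peaks, which covered 36.0%, 33.6% and 25.6% of the sequence. In steps of 10 kb the count was 1, then 8, 10, 13, 9 and 9, and it fell to 7, 5 and 4 before 7 and 5 in the last steps. The gene end lay in a peak-free stretch of 25884 bp, which began 3881 bp before that end.

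In PTCD3, the ribosome-associated repeat protein gene, 20 peaks formed a run at chr2:86341548-86363554. It covered 49.4% of its 22.0 kb, the third highest share among the 46 runs of the genome, while the longest of these, at chr2:216222491-216289420 with 57 peaks, covered 48.5%. The run in LRPPRC was ninth by this measure. The first 8243 bp of PTCD3 were empty, and the run began there with a peak of 893 bp. Its widest peak had 909 bp (chr2:86361876-86362784), and 837 bp was reached at chr2:86347665-86348501. A lone peak of 227 bp at chr2:86365573-86365799 came after the run, following a gap of 2018 bp, just above the limit of 2 kb. With the run left out, PTCD3 held this 1 peak and fell to 0.552 times the density of all searched sequence, so its density rests on the run.

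In MRPL47 all 11 peaks belonged to a run of 20 that went on past the gene end for 9 more peaks (chr3:179298469-179318673, 20.2 kb, 30.6% covered). RefSeq lists ACTL6A, a subunit of chromatin remodelling complexes, as the next coding gene on that side. From the start, the 11 peaks lay at 3.84, 5.56, 7.23, 7.55, 8.02, 10.3, 10.9, 12.01, 12.7, 13.9 and 15.5 kb. Their widths in the same order were 162, 138, 225, 244, 349, 267, 215, 555, 142, 476 and 201 bp. Of 3 equal parts, the part nearest the start thus held 1 peak and the others held 5 each. A peak of 627 bp crossed the gene end by 91 bp but had its midpoint outside and was not counted, as was the case for a peak of 496 bp that crossed the end of PNPT1 by 152 bp.

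NDUFB5, the complex I subunit gene, had 7 separate peaks and no run. They lay 3.86, 7.58, 12.1, 14.9, 16.2, 18.1 and 18.9 kb from the start, with widths of 492, 178, 162, 396, 389, 168 and 327 bp. In 3 equal parts from the start the counts were 1, 2 and 4. The shared start of MRPL47 and NDUFB5 thus had few peaks on either side, and the 2 genes differed in spacing, with a median gap of 772 bp in MRPL47 and 2059 bp in NDUFB5.

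PNPT1, the mitochondrial exoribonuclease gene, had 24 peaks in small groups parted by long gaps. Its gaps had a median of 1139 bp and a maximum of 10737 bp, the longest inside any of the 5 genes. The peak nearest the start was 178 bp wide (chr2:55918805-55918982), and the next began beyond that maximal gap. Groups of 4 to 7 peaks lay about the gene end, at chr2:55880898-55883801 and at chr2:55900987-55904334. The widest peak had 697 bp (chr2:55868411-55869107) and was the only peak of PNPT1 to reach 500 bp. In 3 equal parts from the start PNPT1 held 6, 10 and 8 peaks. Peaks covered 11.2% of PNPT1, compared with 31.7% of LRPPRC, 30.8% of PTCD3, 18.4% of MRPL47 and 10.7% of NDUFB5, while 3.03% of all searched sequence was covered.

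**Figure D3:**
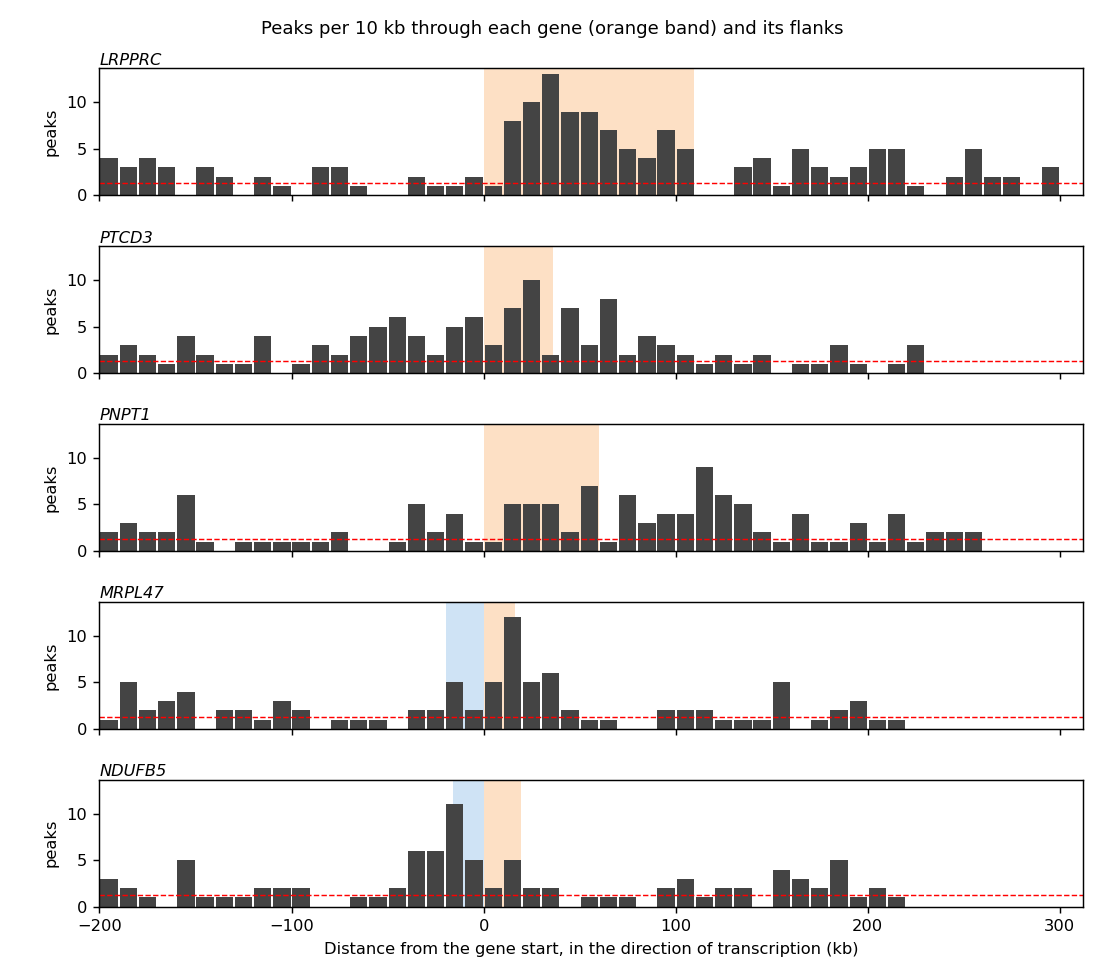
LSD2 peaks per 10 kb (vertical axis) against distance from the gene start in kb, in the direction of transcription, with the gene as an orange band, the neighbouring gene of the MRPL47 and NDUFB5 pair in blue and the mean of all searched sequence as a dashed line. LRPPRC climbs to 13 peaks per step within the gene and drops to 0 past its end. PTCD3 has 290 peaks per Mb before its start and 230 past its end, and PNPT1 has 180 before its start and 315 past its end.

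Short gaps made up a larger share in each of the 5 genes than in the whole list, though in NDUFB5 this rests on 2 gaps. The comparison is not even. In genes only gaps with both peaks inside were counted, which leaves out long gaps over the edges, such as 25884 bp at the LRPPRC end. The whole list has no such limit, and the genes were also chosen by spacing, so the shares are descriptions. Gaps under 1 kb made up 57 of 77 gaps in LRPPRC (74.0%), 15 of 20 in PTCD3 (75.0%), 6 of 10 in MRPL47, 11 of 23 in PNPT1 and 2 of 6 in NDUFB5, against 17.4% of all gaps in the list. The median gap was 386 bp in PTCD3 and 495 bp in LRPPRC, and 4218 bp over the whole list. The closest peaks of LRPPRC were 3 bp apart and those of PTCD3 35 bp.

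Each of the 5 starts lay in a peak-free stretch of 7.5 to 10.4 kb. The stretch was 8655 bp at LRPPRC, from 4811 bp before the start to 3845 bp behind it, and 8785 bp at PNPT1, from 6723 bp before to 2063 bp behind. At PTCD3 it was 10442 bp, of which 2200 bp lay before the start. MRPL47 and NDUFB5 shared a stretch of 7515 bp, with the nearest peaks 3761 bp into MRPL47 and 3616 bp into NDUFB5. In LRPPRC, PTCD3, MRPL47 and NDUFB5 this stretch was longer than any gap between peaks inside the gene, the longest of which were 6495, 2018, 1930 and 4367 bp. In PNPT1 it was not. Such stretches are ordinary in the list as a whole: gaps at least as long made up 28.0% of gaps for LRPPRC, 22.7% for PTCD3, 27.6% for PNPT1 and 32.3% for the shared start, and held 61.5% to 72.6% of the searched sequence. Each stretch also takes in sequence before the start. Its part inside the gene exceeded the longest gap between peaks there only in PTCD3 (8243 bp) and MRPL47 (3761 bp). In LRPPRC (3845 bp), NDUFB5 (3616 bp) and PNPT1 (2063 bp) it did not. By comparison with the genome, none of the starts was unusually empty.

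The gene ends were not alike. The end of PNPT1 and that of MRPL47 each lay within a peak, and NDUFB5 had a peak 605 bp before its end. In LRPPRC the nearest peak was 3881 bp away and in PTCD3 3481 bp.

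Peaks were wider than usual in LRPPRC and PTCD3. The median of NDUFB5 was near that of LRPPRC but rests on 7 peaks, and those of PNPT1 and MRPL47 were lower. The median width was 536 bp in PTCD3 (95% interval from order statistics 276 to 717), 370.5 bp in LRPPRC (317 to 434), 327 bp in NDUFB5 (162 to 492), 243.5 bp in PNPT1 (178 to 334) and 225 bp in MRPL47 (142 to 476), against 173 bp over all peaks. Peaks of 387 bp or more, which make up 10.0% of all peaks, numbered 14 of 21 in PTCD3, 35 of 78 in LRPPRC, 3 of 7 in NDUFB5, 5 of 24 in PNPT1 and 2 of 11 in MRPL47. Peaks of 500 bp or more, 3.38% of all peaks, numbered 12 in PTCD3, 27 in LRPPRC, 1 each in PNPT1 and MRPL47 and 0 in NDUFB5. Narrow peaks under 170 bp, 48.2% of the list, were 12 of 78 in LRPPRC, 2 of 21 in PTCD3, 6 of 24 in PNPT1, 3 of 11 in MRPL47 and 2 of 7 in NDUFB5. Among peaks of 387 bp or more alone, PTCD3 stood at 29.9 times and LRPPRC at 24.5 times the density of all searched sequence, compared with 11.7 for NDUFB5, 9.50 for MRPL47 and 6.42 for PNPT1. The values for MRPL47 and NDUFB5 rest on 2 and 3 wide peaks.

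**Figure D4:**
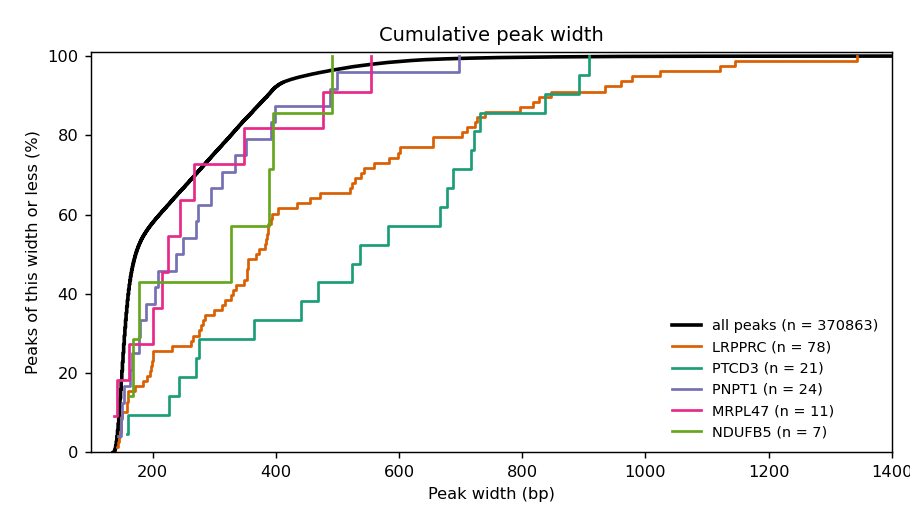
Cumulative share of peaks (vertical axis, percent) against peak width in bp for each gene and for all peaks. The curves of LRPPRC and PTCD3 run far to the right of the curve of all peaks, with medians of 370.5 and 536 bp against 173 bp, and that of MRPL47 runs close to it above its median of 225 bp.

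The flanks did not share these widths. Median widths in both flanks together were 168 bp for NDUFB5, 169 bp for MRPL47, 177 bp for PNPT1, 178 bp for LRPPRC and 208.5 bp for PTCD3. In the flanks of PTCD3, 7 of 104 peaks reached 500 bp, and in those of LRPPRC 4 of 81 did. The bases covered by peaks fell from 31.7% in LRPPRC to 4.82% in its flanks and from 30.8% in PTCD3 to 6.71%.

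Some peaks were deposited on 2 identical lines, a property the choice of the genes did not use. This held for 15 of the 141 peaks of the 5 genes together (10.6%), close to the 10.1% of all peaks. By gene it held for 6 of the 7 peaks of NDUFB5, 5 of 21 in PTCD3, 3 of 78 in LRPPRC, 1 of 11 in MRPL47 and 0 of 24 in PNPT1. The repeated peaks of a gene followed each other: 5 in a row in PTCD3 (chr2:86358280-86362784), 3 in LRPPRC (chr2:44117244-44119966), and in NDUFB5 5 in a row within a stretch of 6 that ended past the gene (chr3:179334613-179343336). The sixth repeated peak of NDUFB5 followed directly on the repeated peak of MRPL47 across the shared start. Over the whole list the next peak after a repeated peak was itself repeated in 69.0% of cases, compared with 3.50% after a peak listed a single time. Repeats thus come in local stretches, and the count for NDUFB5 rests on 2 such stretches. The labels and the file header do not say how the repeats arose.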

How the data were processed

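Per the submitters' processing notes, BWA and the hg19 build were used. Per the file headers, the authors trimmed reads, removed duplicates and called MACS peaks of 1 LSD2 ChIP library against 1 input library. The settings were read and fragment lengths of 120 bp, 2700 Mb of effective genome, an enrichment factor of 32, a p-value threshold of 1e-05 and correction for local biases. Per the labels, sequencing used Ion PGM and Ion Proton. The 2 read sets carry different dates in the header, so ChIP and run cannot be told apart. The deposited values are peak positions in bases. Depth is unknown, which limits every count, and the labels and header name no tool versions.

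The 414095 lines gave 370863 distinct peaks, and starts were converted to count from 1. A peak belonged to a gene by its midpoint. Python 3.11.15, pandas and SciPy were used, and counting of planted peaks and runs was tested on simulated data. Genes, lists and the run definition were chosen with earlier results of these data known. All 5 genes are described; single peaks named are the widest, those nearest the start, and repeated ones, while those at gaps, gene edges or in groups were chosen after their values were seen. No test was made. The planned list of other mitochondrial genes was not run, since no hg19 annotation was used here. RefSeq tables (GRCh38.p14) gave neighbours, promoters and the strands of all genes but NDUFB5, whose direction was assumed from its position facing MRPL47.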

Additional observations from a re-analysis of the deposited data

How the results depend on the processing

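Of 133 values for the 5 genes under other processing choices, 103 stayed within the counting interval of the reported value or, for counts in runs, within 1.5 times of it. Another 26 moved and 4 turned from above to below the reference. Leaving out the longest run of a gene turned PTCD3 to 0.552 and MRPL47 to 0 times the density of all searched sequence, and to 0.275 and 0 times that of their flanks, because it leaves 1 and 0 peaks. It moved LRPPRC to 3.54 and 2.26 and the median width of PTCD3 to 227 bp, and gave no value for PNPT1 and NDUFB5, which have no run. Among peaks of at least 173 bp (185636 peaks), densities relative to all searched sequence were 9.13 for LRPPRC, 8.14 for PTCD3 and 4.64 for PNPT1, LRPPRC stood at 5.26 times its flanks, and 21 peaks of LRPPRC and 0 of MRPL47 lay in runs. Among the 37225 peaks of at least 387 bp, these densities were 24.5, 29.9, 6.42, 9.50 and 11.7 for LRPPRC, PTCD3, PNPT1, MRPL47 and NDUFB5, ratios to flanks were 12.8, 10.4, 2.57, 6.72 and 9.76, and LRPPRC, PTCD3 and MRPL47 had 0 peaks in runs, in a set with fewer peaks. The density of LRPPRC relative to its own chromosome was 4.02. With gaps up to 1 kb, 15 peaks of LRPPRC, 0 of PTCD3 and 0 of MRPL47 lay in runs, a stricter rule. Counting every deposited line raised NDUFB5 from 2.75 to 4.57 times the density of all searched sequence and from 1.82 to 3.25 times that of its flanks, within its wide intervals, since 6 of its 7 peaks are listed on 2 lines. No paired analysis was possible because there was 1 ChIP and 1 input library.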

Other observations

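The sequence past the end of PNPT1 held as dense a stretch as the gene. In steps of 10 kb from the PNPT1 start, the step from 110 to 120 kb held 9 peaks, more than the 7 of the fullest step that begins within the gene. RefSeq lists PPP4R3B, a regulatory subunit of protein phosphatase 4, and CFAP36 as the next coding genes on that side, and neither was placed on the peaks. Past the end of PTCD3, the steps from 40 to 50 kb and from 60 to 70 kb behind its start held 7 and 8 peaks. The next coding genes there are IMMT, which organises the mitochondrial inner membrane, and MRPL35, another protein of the large mitochondrial ribosomal subunit. Before the start of PTCD3, RefSeq lists POLR1A, the largest subunit of RNA polymerase I. There the step from 50 to 40 kb before the start held 6 peaks, as did the last 10 kb before it. Past the end of LRPPRC lie ABCG8 and ABCG5, the sterol export transporters of liver and gut. There the first 2 whole steps, from 110 to 130 kb behind the LRPPRC start, held 0 peaks, and the steps up to 220 kb held 1 to 5 each.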
